A study of Mus musculus with 8 samples.

Results

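Genes for ion channels and connexins were read out of microarrays of mouse spleen NK cells sorted on ChAT-eGFP, a fluorescent reporter of the gene for choline acetyltransferase, the enzyme that makes acetylcholine. The members were taken by gene symbol: potassium channel genes and their auxiliary subunits (Kcn), TRPC, TRPM and TRPV cation channels, voltage-gated calcium (Cacn) and sodium (Scn) channels, CLC chloride channels and exchangers (Clcn), ATP-gated P2X receptors (P2rx), Orai calcium channels, and alpha, beta and gamma connexins (Gja, Gjb, Gjc). No measured cutoff enters the symbols, but the families were chosen by a reading of the same ChAT-P against ChAT-N differences, in which Trpm6 and Gja1 stood out, so the values of Trpm6 and Gja1 are given as a description without a test. The symbols matched 191 of the 20284 genes named on the array, through 263 probes, and 93 of the 191 were bright enough to be tested among 13607 genes. The symbol pattern also took 5 genes that are not channel subunits (Kcnmb4os1, Kcnq1ot1, Trpc5os, Trpc4ap and Kcnrg).

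Each of 8 samples was a pool of NK cells from the spleens of 2 to 4 mice, purified magnetically and then sorted for eGFP, with total RNA labelled with Cy3 on a one-colour Agilent array. A total of 4 pools were reporter-positive (ChAT-P, ChAT+ in the labels) and 4 were reporter-negative (ChAT-N, ChAT-). All pools came from mice with the ChAT-eGFP reporter as far as the labels say, and the labels give neither strain, age nor sex. No label states that pools of a group came from different mice. The p-values therefore reflect only how far these 8 samples scatter, and part of that scatter may be technical. Values are log2 signals minus the 75th percentile of the array, and every difference is ChAT-P minus ChAT-N on that log2 scale. A gene was called when its limma p, adjusted over all 13607 genes, was under 0.05. Since these are bulk samples, fewer cells of a kind and less RNA per cell cannot be told apart.

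Ion channels let charged particles cross membranes through a gated pore. In lymphocytes, potassium channels set the membrane voltage that drives calcium in through Orai channels after receptor engagement, and calcium in turn supports gene activation and granule release. TRPM channels with a kinase domain carry magnesium, P2X receptors open when extracellular ATP binds, and connexins pair between neighbouring cells to form gap junctions or sit unpaired as hemichannels.

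The sequences shown here are the 250 bases before the RefSeq transcription start (GRCm38.p6, 5′ to 3′ on the strand of the gene) for Trpm6, Gja1 and Kcnmb4, the tested members with the largest differences toward ChAT-P. Trpm6 lies on the plus strand at chr19:18749480-18749729, Gja1 on the plus strand at chr10:56377050-56377299 and Kcnmb4 on the minus strand at chr10:116473524-116473773. Capitals mark matches, on either strand, to the AP-1 site TGANTCA, the nuclear receptor half-site AGGTCA, the TATA box TATAAA and the Sp1 box GGGCGG.
Trpm6: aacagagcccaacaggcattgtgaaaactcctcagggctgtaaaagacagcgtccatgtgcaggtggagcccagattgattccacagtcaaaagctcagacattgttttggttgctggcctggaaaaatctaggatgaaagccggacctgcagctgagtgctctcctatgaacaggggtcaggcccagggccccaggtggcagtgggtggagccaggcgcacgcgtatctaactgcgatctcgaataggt
Gja1: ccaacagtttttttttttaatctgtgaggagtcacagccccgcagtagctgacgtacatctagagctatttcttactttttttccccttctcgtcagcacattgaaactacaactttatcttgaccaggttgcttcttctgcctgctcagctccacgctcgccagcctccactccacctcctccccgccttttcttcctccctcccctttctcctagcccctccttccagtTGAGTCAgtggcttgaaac
Kcnmb4: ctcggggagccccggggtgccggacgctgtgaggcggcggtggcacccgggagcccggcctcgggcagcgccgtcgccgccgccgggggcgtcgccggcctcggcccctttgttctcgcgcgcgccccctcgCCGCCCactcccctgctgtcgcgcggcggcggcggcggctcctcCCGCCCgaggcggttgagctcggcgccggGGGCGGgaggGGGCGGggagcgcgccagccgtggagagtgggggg
Trpm6 held none of the 4 motifs in these letters. Gja1 held 1 AP-1 match that begins 19 bases before the start, a motif found in 6.75% of 32851 RefSeq promoter entries of the same length. Kcnmb4 held 4 matches to the Sp1 box, and 32.7% of those entries hold at least 1. The share of entries with 4 was not counted. AGGTCA occurs in 14.0% and TATAAA in 12.4% of the entries, and neither occurred in the 3 sequences. A match describes letters and shows no binding.

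The gene that the reporter stands for behaved as the sort implies. Chat, which encodes choline acetyltransferase, had values of 3.70, 4.10, 3.72 and 3.48 on the ChAT-P arrays and 2.64, 3.12, 2.32 and 2.51 on the ChAT-N arrays, a difference of 1.10 (SE 0.20, limma adjusted p = 0.0201). The groups did not overlap, but ChAT-N pools held Chat signal well above background on 4 of 4 arrays. The call was lost without ChAT-P replicate 3 (adjusted p = 0.0625) or ChAT-N replicate 4 (0.0648). Of the spots on an array, controls aside, 50.2% to 59.7% in ChAT-P and 57.5% to 63.2% in ChAT-N passed as well above background, and 0 were saturated. The 4 ChAT-P arrays shared a slide and a scan and the 4 ChAT-N arrays shared another, so a slide effect and the reporter cannot be told apart in what follows.

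Markers of several kinds of cells, NK cells among them, differed between the groups. Of 15 tested NK cell markers, 0 were called higher and 3 lower by limma (0 and 12 at an unadjusted p under 0.05, which 24.8% of all tested genes reached), among them Klrb1c at -1.60 (SE 0.13) and Klrk1 at -1.14 (SE 0.15), and the summed NK signal was 166 to 242 times the 75th percentile in ChAT-P and 239 to 296 times in ChAT-N. Of 13 markers of innate-like T cells and type 2 and 3 innate lymphoid cells, 8 were higher, with a summed signal of 29.5 to 37.8 against 17.0 to 19.7. Of 12 B cell markers 6 were higher (103 to 134 against 69.8 to 88.4). Of 9 basophil and mast cell markers 6 were lower (7.36 to 9.08 against 18.8 to 50.7), of 10 neutrophil markers 3 (3.15 to 35.6 against 20.7 to 60.7), of 9 dendritic cell markers 3 (43.2 to 59.0 against 40.7 to 54.9), of 8 erythroid markers 3 (21.7 to 22.6 against 29.5 to 39.7) and of 12 platelet markers 2 (8.92 to 13.7 against 14.6 to 30.9). By limma 0 of 11 T cell, 0 of 10 monocyte and 0 of 5 stromal markers were called, with 1, 4 and 2 at an unadjusted p under 0.05; their summed signals were 19.7 to 32.1 against 19.7 to 27.7, 13.2 to 15.1 against 16.4 to 19.6, and 3.69 to 6.08 against 4.71 to 7.04. Themis, C1qc, Cdh5, Pdgfra, Cxcl12 and Lyve1 were not well above background on any array. Cd200r3, Retnlg and Clec9a, counted above as lower among basophil, neutrophil and dendritic cell markers, were not well above background on any ChAT-P array. They passed the brightness filter only through the 4 ChAT-N arrays, so these calls set signal against background. The part of these cells in the channel results was not tested.

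Apart from Trpm6 and Gja1, 91 members were tested, of which 2 were called higher in ChAT-P (Kcnmb4 among them), where 2.81% of all tested genes were called higher, and 2 were called lower (Kcnk7 among them), where 3.15% were called lower. These 4 are 4.40% of the 91, beside 5.95% of all genes in either direction. Trpm6 and Gja1, which led to the choice of families, are not counted here. Under median scaling of the arrays the calls of all 93 were 4 higher and 0 lower, Trpm6 and Gja1 included. Of all 93, again with Trpm6 and Gja1, 62 had a negative and 31 a positive difference, or 66.7% negative beside 46.9% of all genes. The member median was -0.16 beside 0.025 over all genes. Scaling each array on its median moved the all-gene median to 0.24 and the member median to 0.055, with the same distance of -0.19 between them, which left 35 members negative and 58 positive. This scaling shifts all genes alike, and 27 members changed sign with it. Under quantile normalization 54 were negative. The groups did not overlap for 11 of the 93, 7 higher and 4 lower (all genes: 9.34% higher and 6.15% lower, 15.5% in all). The 7 include Trpm6 and Gja1, which led to the choice of families. At an unadjusted limma p under 0.05 there were 20 of the 93, beside 24.8% of all genes. Of these, 8 were higher, Trpm6 and Gja1 included, and 12 were lower.

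**Figure D1:**
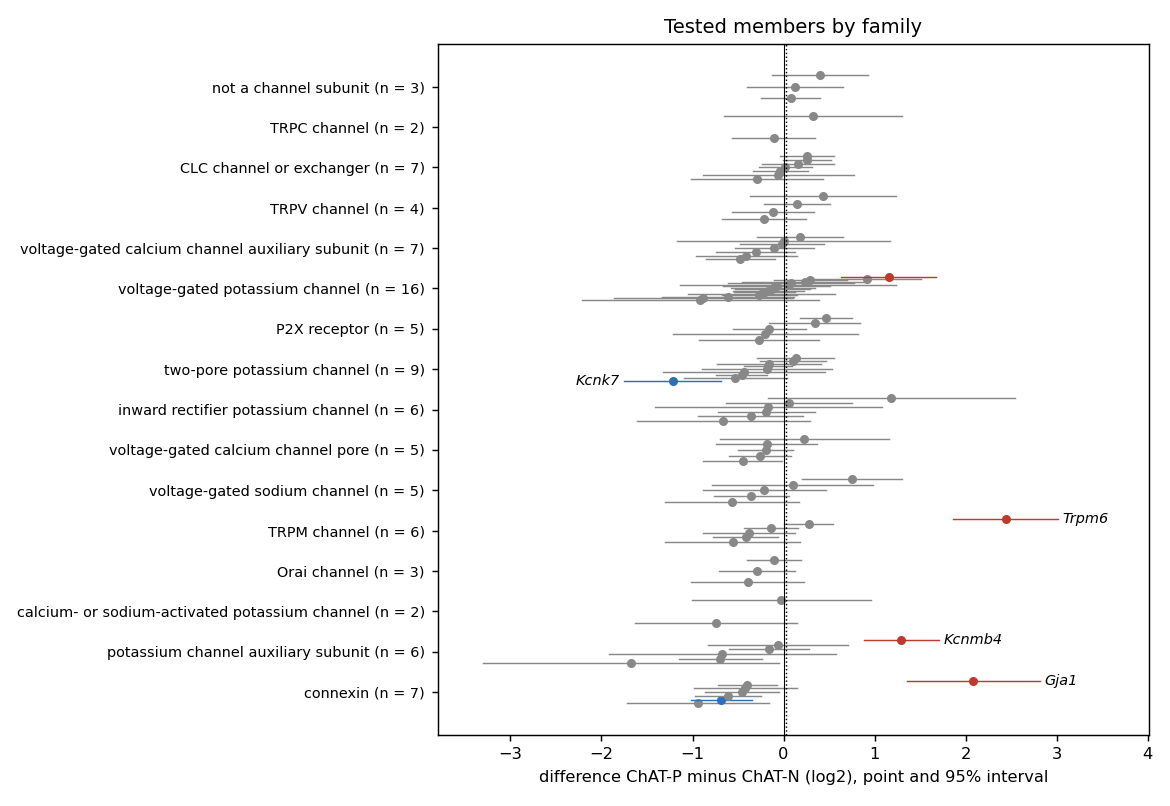
Difference between ChAT-P and ChAT-N (log2) for each of the 93 tested members, with its 95% interval from limma, sorted into families; the number tested stands beside each family. Red points were called higher, blue points lower and grey points not called, and the dotted line is the median of all tested genes (0.025). Trpm6 and Gja1 are drawn by the same rule, but they led to the choice of families. Their colour and interval are therefore a description and not a test. Trpm6 (2.44) and Gja1 (2.09) lie far to the right of the rest of their families.

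TRPM6 and its close relative TRPM7 are cation channels fused to a protein kinase and carry magnesium and calcium. Trpm6 is known mainly from magnesium uptake in kidney and intestine, while Trpm7 is widely expressed. Trpm6 had values of -2.44, -3.60, -3.52 and -3.40 on the 4 ChAT-P arrays and -5.57, -5.49, -5.65 and -6.00 on the 4 ChAT-N arrays. Every ChAT-P value lay above every ChAT-N value, and ChAT-P replicate 1 was the highest. The means were -3.24 ± 0.54 (SD, n = 4) and -5.68 ± 0.22 (SD, n = 4), a difference of 2.44 (SE 0.26) or 5.42-fold. The probe was well above background on 4 of 4 ChAT-P arrays and 1 of 4 ChAT-N arrays, so the size of the difference rests on dim signal in ChAT-N, and it was 1.42 when background was corrected with normexp before quantile normalization. Trpm6 had 1 probe.

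Trpm7 had values of 1.92, 2.10, 1.95 and 2.13 on the ChAT-P arrays and 1.71, 1.95, 1.67 and 1.67 on the ChAT-N arrays. The groups overlapped through ChAT-N replicate 2, and the difference was 0.28 (SE 0.12, limma adjusted p = 0.189). The other tested TRPM members had negative differences, none past the threshold. At an unadjusted limma p under 0.05, Trpm7 was higher and 1 of these others was lower. Trpm2, a calcium-permeable channel opened by ADP-ribose, had a difference of -0.41 (SE 0.16, adjusted p = 0.148), and its lowest values were on ChAT-P arrays, with ChAT-N between -4.38 and -4.05. Trpm4, a calcium-activated sodium-permeable channel, had -0.56 (SE 0.33), Trpm5, a related channel of taste cells, -0.38 (SE 0.22) and Trpm1, a channel of retinal bipolar cells, -0.14 (SE 0.13), which turned to 0.079 under median scaling. Trpm4 and Trpm5 were dim, well above background on 2 and 1 of 4 ChAT-P arrays and on 3 of 4 ChAT-N arrays each. Of 15 listed genes of magnesium transport 14 were tested, and limma called 0 (at an unadjusted p under 0.05, 1 was higher and 1 lower), with a median difference of -0.16.

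Of 7 tested connexins 1, Gja1, was higher in ChAT-P and 1 was called lower. Gja1 aside, 5 connexins were lower at an unadjusted limma p under 0.05, which 24.8% of all tested genes reached in either direction. Gja1 encodes the most widely expressed connexin, found in heart, astrocytes and many immune cells. It had values of -3.42, -2.42, -2.74 and -1.83 on the ChAT-P arrays and -4.80, -4.87, -4.15 and -4.94 on the ChAT-N arrays. All ChAT-P values lay above all ChAT-N values, with ChAT-P replicate 4 the highest. The means were -2.60 ± 0.66 (SD, n = 4) and -4.69 ± 0.36 (SD, n = 4), a difference of 2.09 (SE 0.32) or 4.25-fold. The single probe was well above background on 4 of 4 ChAT-P and 3 of 4 ChAT-N arrays, and the difference was 1.48 with normexp correction and quantile normalization.

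The other 6 tested connexins had negative differences, under the other scalings too. Gja3, a connexin of the eye lens, had values of -2.99, -3.24, -3.19 and -3.03 against -2.56, -2.37, -2.89 and -2.19. Its groups did not overlap, but the difference of -0.61 (SE 0.16) missed the threshold (adjusted p = 0.0597).

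Gjc3, a connexin of myelinating glia, had -2.94, -2.77, -3.34 and -1.66 in ChAT-P and -1.91, -1.42, -1.45 and -2.18 in ChAT-N. ChAT-P replicate 4 lay among the ChAT-N values, and the difference of -0.94 (SE 0.35, adjusted p = 0.138) passed the threshold only without that array (-1.28, adjusted p = 0.0387). Gjb2, a connexin of the inner ear and skin, differed by -0.46 (SE 0.18), Gjb1, of liver and myelin, by -0.42 (SE 0.25) and Gja5, of atrium and arterial endothelium, by -0.40 (SE 0.14), with adjusted p of 0.155, 0.336 and 0.129. Of 10 listed junction proteins and connexin partners 8 were tested and 2 fell. Cdh1, the adhesion protein E-cadherin, fell by 4.65 (SE 0.48, adjusted p = 0.00296), with signal well above background on 1 of 4 ChAT-P and 4 of 4 ChAT-N arrays, so the size rests on dim signal in ChAT-P. Tjp1, the scaffold ZO protein that binds connexin tails, fell by 1.29 (SE 0.31, adjusted p = 0.0446), a call lost on leaving out any 1 of 6 arrays. The remaining 9 connexins on the array were not bright enough to be tested.

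**Figure D2:**
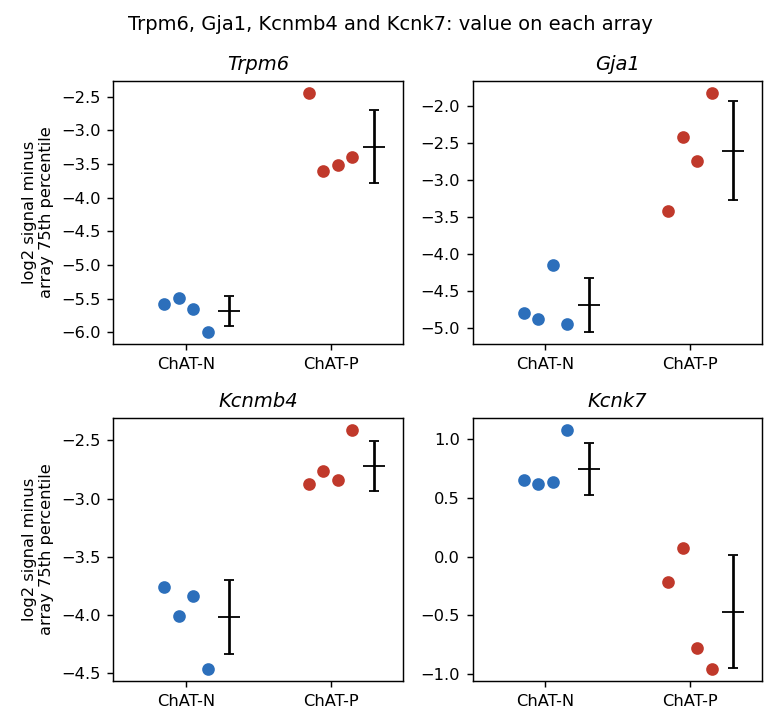
Values of Trpm6, Gja1, Kcnmb4 and Kcnk7 on each array (log2 signal minus the 75th percentile of the array); points stand in replicate order from 1 to 4 within each group, and the bar beside them is the mean with its SD. Trpm6, Gja1 and Kcnmb4 are higher on every ChAT-P array than on any ChAT-N array, and Kcnk7 is lower.

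Potassium channel genes were the largest class, with 40 voltage-gated members on the array. The 16 tested had a median difference of -0.12, and 1 was called. At an unadjusted limma p under 0.05, 2 were higher and 0 lower.

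Kcna3 encodes the voltage-gated channel that holds the resting voltage of many T cells. It had values of -3.70, -4.10, -3.83 and -3.82 in ChAT-P and -4.46, -5.61, -4.37 and -4.70 in ChAT-N. All ChAT-P values lay above all ChAT-N values, and ChAT-N replicate 2 was far below the other ChAT-N arrays. The difference of 0.92 (SE 0.26, 95% interval 0.33 to 1.51) missed the threshold over all genes (adjusted p = 0.0707). Kcnq5, a channel of the M-current family, differed by -0.17 (SE 0.17) at its brightest probe and by -0.95 (SE 0.19) at a dimmer second probe, where the groups did not overlap. The average of its probes was called (-0.56, adjusted p = 0.0248).

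Auxiliary subunits do not form the pore but change how it opens. Kcnmb4, the beta subunit of the large-conductance calcium-activated channel that is common in brain, had values of -2.88, -2.76, -2.84 and -2.41 in ChAT-P and -3.75, -4.01, -3.84 and -4.46 in ChAT-N. The groups were clearly apart. The difference was 1.29 (SE 0.18, adjusted p = 0.0088) or 2.45-fold (95% interval 1.84 to 3.26), and no single array was needed for the call. A second probe of Kcnmb4 was not well above background on any array. Kcnma1, which encodes the pore that this subunit joins, was not well above background on any ChAT-P array and was so on 3 of 4 ChAT-N arrays. Its values ran from -5.98 to -5.13 in ChAT-P and from -7.36 to -3.09 in ChAT-N, so the groups overlapped. Without ChAT-N replicate 2 the ChAT-N mean was -5.75, below the ChAT-P mean of -5.56, so no direction is given.

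Kcne3, a small single-pass subunit of voltage-gated channels, was not well above background on any ChAT-P array and was so on 3 of 4 ChAT-N arrays. Its values were -7.62, -7.22, -6.80 and -7.30 in ChAT-P and -4.97, -4.30, -5.13 and -5.76 in ChAT-N. The groups did not overlap. Its signal was at least 1.06-fold higher in ChAT-N, a bound that sets the mean of the brighter group against the mean of the darker group with each dark array raised to the lowest signal counted as above background, and no fold could be given without ChAT-N replicate 2. Kcnab2, a cytoplasmic beta subunit of the Kv family, had the most negative difference of the tested members, -1.68 (SE 0.72, adjusted p = 0.189). Its values scattered from -5.88 to -2.76 in ChAT-P and from -3.79 to -1.37 in ChAT-N, and the groups overlapped. Kcnip3, a calcium-binding subunit also known as DREAM or calsenilin, differed by -0.70 (SE 0.20, adjusted p = 0.0763) at its brightest probe and by -2.38 (SE 0.67) at its second probe, and the average of its probes was called (-1.54, adjusted p = 0.0447). Of the 6 tested auxiliary subunits 5 had negative differences, and 3 did under median scaling. At an unadjusted limma p under 0.05, 1 was higher and 2 were lower.

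K2P channels carry background potassium leak. Kcnk7, a member not known to carry current by itself, had values of -0.21, 0.07, -0.78 and -0.96 in ChAT-P and 0.65, 0.62, 0.63 and 1.08 in ChAT-N. All ChAT-P values lay below all ChAT-N values. Kcnk7 fell by 1.22 (SE 0.24, adjusted p = 0.0245) on the log2 scale, a signal 2.32-fold higher in ChAT-N (95% interval 1.60 to 3.36). The call was lost without ChAT-P replicate 3 (adjusted p = 0.0770), ChAT-N replicate 3 (0.0518) or ChAT-N replicate 4 (0.0720), and under median scaling (0.0629). Kcnk15, another K2P gene, had 0.83, 0.94, 1.00 and 0.91 against 1.39, 1.50, 1.12 and 1.52. Its groups did not overlap, with a difference of -0.46 (SE 0.12, adjusted p = 0.0632). Kcnk16, a channel of the pancreas, differed by -0.53 (SE 0.25, adjusted p = 0.226). Of 9 tested K2P members 7 had negative differences, and 4 did under median scaling. At an unadjusted limma p under 0.05, 0 were higher and 2 lower.

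Among inward rectifiers, which pass potassium more easily into the cell than out of it, 0 of 6 tested members were called by limma and 0 had an unadjusted p under 0.05. Kcnj1, the renal outer medullary channel, had values of -3.59, -4.16, -1.99 and -1.99 in ChAT-P and -4.38, -5.30, -3.30 and -3.48 in ChAT-N. Replicates 1 and 2 were lower than 3 and 4 in both groups, the groups overlapped, and the difference was 1.18 (SE 0.60, adjusted p = 0.260). Each ChAT-P array lay above the ChAT-N array of the same number. A limma fit with replicate number as a block called Kcnj1 (adjusted p = 0.0033), but the labels do not say that the numbers pair. Kcnj8, a pore of ATP-sensitive channels in vascular and other cells, was not well above background on any ChAT-P array and was so on 3 of 4 ChAT-N arrays. Its values ran from -7.37 to -4.81 in ChAT-P and from -5.00 to -3.16 in ChAT-N, at least 2.23-fold higher in ChAT-N by the same bound (1.90-fold to 2.91-fold on leaving out 1 ChAT-N array). The groups overlapped by ChAT-P replicate 2 and ChAT-N replicate 1.

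Of 8 calcium- or sodium-activated potassium channel genes 2 were tested, and 0 were called by limma or had an unadjusted p under 0.05. Kcnn4 encodes the intermediate-conductance channel that supports calcium entry in activated lymphocytes. Its values were 2.36, 0.90, 1.33 and 1.53 in ChAT-P and 2.62, 0.60, 1.36 and 1.63 in ChAT-N. The spread within each group was far larger than the difference of -0.02 (SE 0.43), whose sign changed with the scaling and with the arrays used. Kcnn3, a small-conductance channel, was dim and differed by -0.74 (SE 0.40, adjusted p = 0.282).

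Orai proteins form the store-operated calcium channel of lymphocytes. All 3 genes were well above background on all 8 arrays, 0 were called by limma and 0 had an unadjusted p under 0.05. Orai1, the main pore in T and NK cells, had values of -0.10, -0.41, 0.31 and 0.35 in ChAT-P and -0.04, 0.04, 0.70 and 1.02 in ChAT-N, a difference of -0.39 (SE 0.27, 95% interval -1.01 to 0.22). Orai2, a subunit that joins Orai1, ranged from 1.05 to 1.50 and from 1.25 to 2.03, a difference of -0.29 (SE 0.18). Both groups overlapped for each gene, and a second probe of each gave a difference of the same sign (-0.24 and -0.21). Orai3 differed by -0.11 (SE 0.13) at its brightest probe and by 0.21 and 0.36 at its other probes, and its sign turned under median scaling (0.11) and when probes were averaged (0.15).

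Of 22 listed store-operated calcium entry partners 20 were tested, with 1 called higher and 1 lower. Itpr1, the receptor through which inositol trisphosphate releases stored calcium, rose by 0.48 (SE 0.12, adjusted p = 0.0483), a call lost on leaving out any 1 of the 8 arrays. Cracr2a, a calcium sensor that binds Orai, fell by 0.96 (SE 0.22, adjusted p = 0.0391), lost on leaving out any 1 of 6 arrays. Of 12 tested calcium pumps and exchangers 1 fell, Atp2b2, a plasma membrane calcium pump (-0.81, SE 0.15, adjusted p = 0.0231), a call lost on leaving out any 1 of 4 arrays. By limma 0 of 15 mitochondrial and endolysosomal channel genes were called, and at an unadjusted p under 0.05 there were 2.

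Among TRPC and TRPV channels, 0 of 2 and 0 of 4 tested members were called by limma, and 0 had an unadjusted p under 0.05. Trpc6, a diacylglycerol-gated channel, differed by 0.32 (SE 0.43) and Trpv1, the capsaicin receptor, by 0.43 (SE 0.35), and both were well above background on 2 arrays of each group. Trpc4 differed by -0.11 (SE 0.20) at its brightest probe and by -0.81 (SE 0.30) at a dimmer probe, where the groups did not overlap.

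P2X receptors are ligand-gated cation channels for ATP. By limma 0 of 5 tested members were called, with 1, P2rx4, at an unadjusted p under 0.05. P2rx4 had values of 2.40, 2.50, 2.56 and 2.34 in ChAT-P and 2.21, 1.89, 2.02 and 1.81 in ChAT-N. All ChAT-P values lay above all ChAT-N values, and the spread within groups was small. The difference was 0.47 (SE 0.13, 95% interval 0.19 to 0.75), or 1.38-fold, and missed the threshold at adjusted p = 0.0618.

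P2rx7, whose prolonged opening admits larger molecules and can kill lymphocytes, had values of -2.17, -1.47, -2.59 and -2.16 in ChAT-P and -2.38, -2.24, -2.57 and -2.57 in ChAT-N. ChAT-P replicate 2 was the highest and ChAT-P replicate 3 the lowest of all arrays. The difference was 0.34 (SE 0.22) at this probe and -0.17 (SE 0.21) at another, so the probes disagreed in sign. P2rx3, known from sensory neurons, differed by -0.27 (SE 0.29), P2rx1, of platelets and smooth muscle, by -0.20 (SE 0.45) and P2rx5 by -0.16 (SE 0.18). P2rx1 changed sign without ChAT-P replicate 2 (0.12) or ChAT-N replicate 1 (0.023) and under median scaling (0.017), and P2rx5 did so under median scaling (0.062) and quantile normalization (0.016).

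Of 18 listed partners in ATP sensing 14 were tested, with 0 called higher and 4 lower (0 and 5 at an unadjusted p under 0.05, beside 24.8% of all genes). Adora2b and Adora3, receptors for the adenosine that ATP breakdown yields, fell by 1.66 (SE 0.21, adjusted p = 0.00647) and 1.60 (SE 0.25, adjusted p = 0.0122). Entpd1, the ecto-enzyme CD39 that degrades ATP, fell by 0.80 (SE 0.19, adjusted p = 0.0459), and P2ry14, a receptor for UDP-glucose, fell by 0.67 (SE 0.17, adjusted p = 0.0489). The Entpd1 and P2ry14 calls were each lost on leaving out any 1 of 6 arrays, and those of Adora2b and Adora3 held whichever array was left out. All tested basophil and mast cell markers had negative differences too, as did most NK cell, neutrophil, erythroid and platelet markers. Most innate-like T and B cell markers had positive ones. The part of any of these cells in the receptor differences was not tested.

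**Figure D3:**
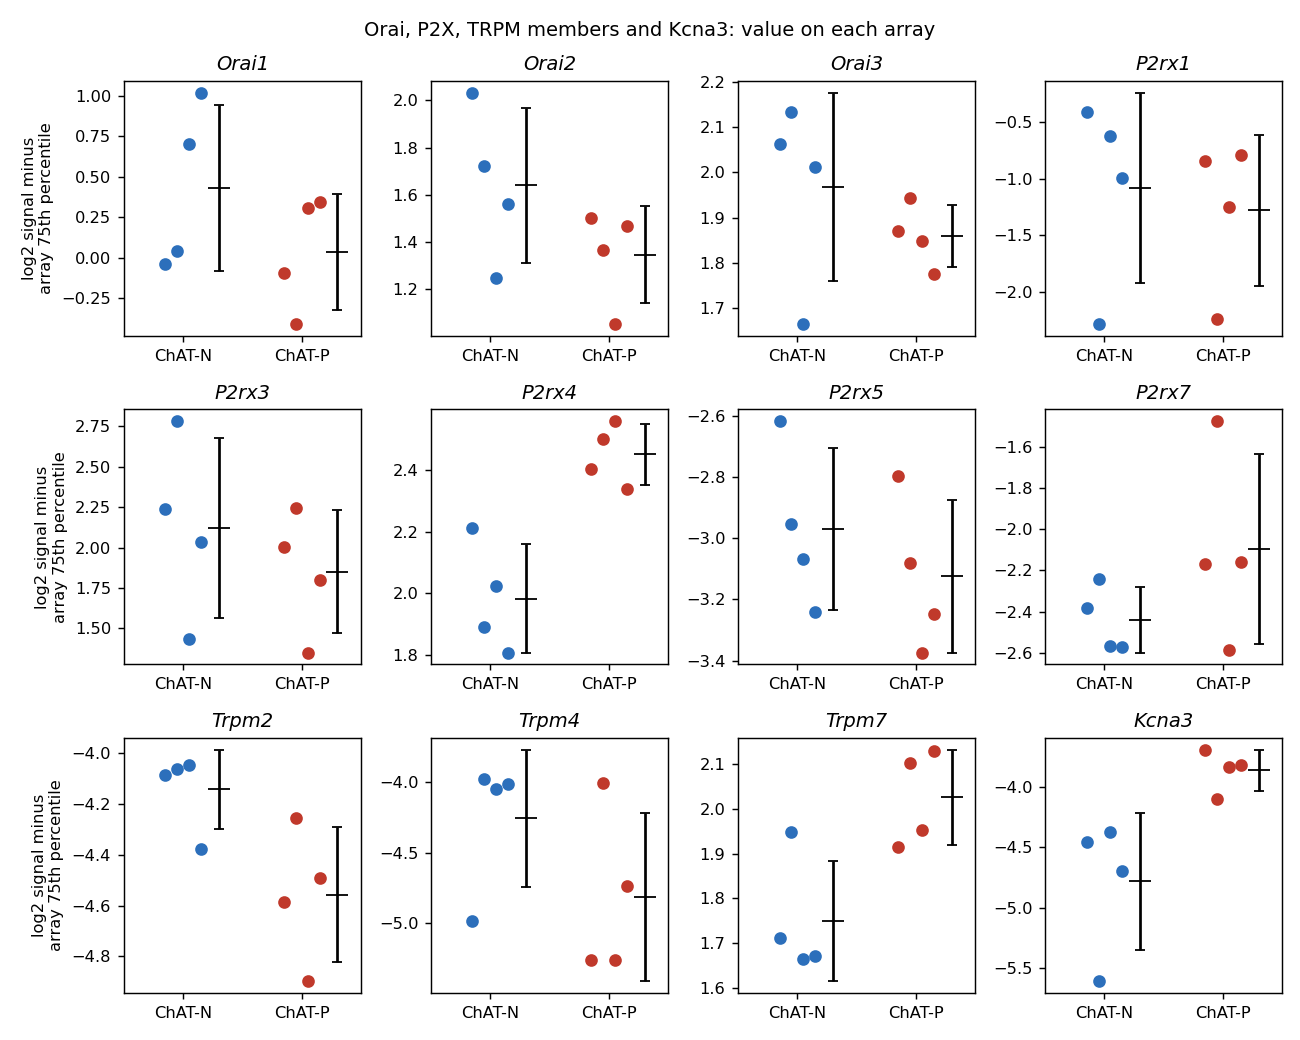
Values of the Orai members, the P2X members, Trpm2, Trpm4, Trpm7 and Kcna3 on each array (log2 signal minus the 75th percentile of the array, each panel with its own axis); points stand in replicate order within each group, and the bar is the mean with its SD. P2rx4 and Kcna3 are higher on every ChAT-P array than on any ChAT-N array, while the groups overlap in the other panels.

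Voltage-gated calcium and sodium channels are defined mainly in excitable cells, though lymphocytes carry transcripts of several. By limma 0 of 5 calcium pore genes, 0 of 7 calcium auxiliary genes and 0 of 5 sodium channel genes were called, with 1 of each at an unadjusted p under 0.05, beside 24.8% of all genes. Cacna1d, an L-type calcium pore, differed by -0.45 (SE 0.19), Cacng6, a gamma subunit, by -0.47 (SE 0.17), and Scn4a, the skeletal muscle sodium pore, by 0.75 (SE 0.24), with adjusted p of 0.191, 0.123 and 0.103. Scn4a ranged from -3.17 to -2.27 in ChAT-P and from -3.80 to -3.01 in ChAT-N, and the groups overlapped only through ChAT-N replicate 1.

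CLC proteins are chloride channels of the surface membrane or chloride-proton exchangers of endosomes and lysosomes. By limma 0 of 7 tested members were called and 0 had an unadjusted p under 0.05. Clcn4, an endosomal exchanger, had 2.22, 2.16, 2.42 and 2.11 against 1.97, 1.85, 2.06 and 2.01. Its groups did not overlap, with a difference of 0.25 (SE 0.12, adjusted p = 0.212). Bsnd, the CLC channel subunit barttin, was the 1 called gene among 14 tested anion and proton channel genes and fell by 0.55 (SE 0.12, adjusted p = 0.0349), a call lost on leaving out any 1 of 7 arrays. Atp1b1, the beta subunit of the sodium pump, fell by 0.83 (SE 0.15, adjusted p = 0.0192) and was the 1 called gene among 12 of sodium pumping and chloride cotransport, and that call was lost without 2 single arrays. By limma 0 of 9 pannexins and other large-pore channels and 0 of 14 mechanosensitive and other cation channels were called, with 1 and 3 at an unadjusted p under 0.05.

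The 10 partner lists together held 132 tested genes of 168, with 1 higher and 10 lower, or 8.33% called beside 5.95% of all genes, and a median difference of -0.11. Under median scaling the partner calls were 0 higher and 3 lower, beside 212 and 119 over all 13607 genes, so most of these lower calls depend on the scaling. Among the 5 genes that are not channel subunits 3 were tested and 0 were called by limma or had an unadjusted p under 0.05. Kcnq1ot1, a long non-coding RNA of the imprinted Kcnq1 locus, differed by 0.40 (SE 0.23).

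Detection was uneven among the members. By the brightest probe 68 of the 191 were well above background on all 8 arrays, 25 on 4 to 7, 24 on 1 to 3 and 74 on none. Orai genes were all detected on all arrays. Of K2P genes 9 of 14 (64.3%) were tested, of CLC genes 7 of 9 (77.8%) and of voltage-gated potassium channel genes 16 of 40 (40%). The tested share was 48.7% over the members and 67.1% over all named genes. More ChAT-N than ChAT-P arrays were above background for 34 members (17.8%, beside 2434 of all 20284 named genes, or 12%), and the reverse held for 12 (6.28%, beside 2.54% of all named genes). Kcne3, Kcnj8 and Kcnma1 were the 3 members detected on at least 3 arrays of 1 group and none of the other, each in ChAT-N.

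**Figure D4:**
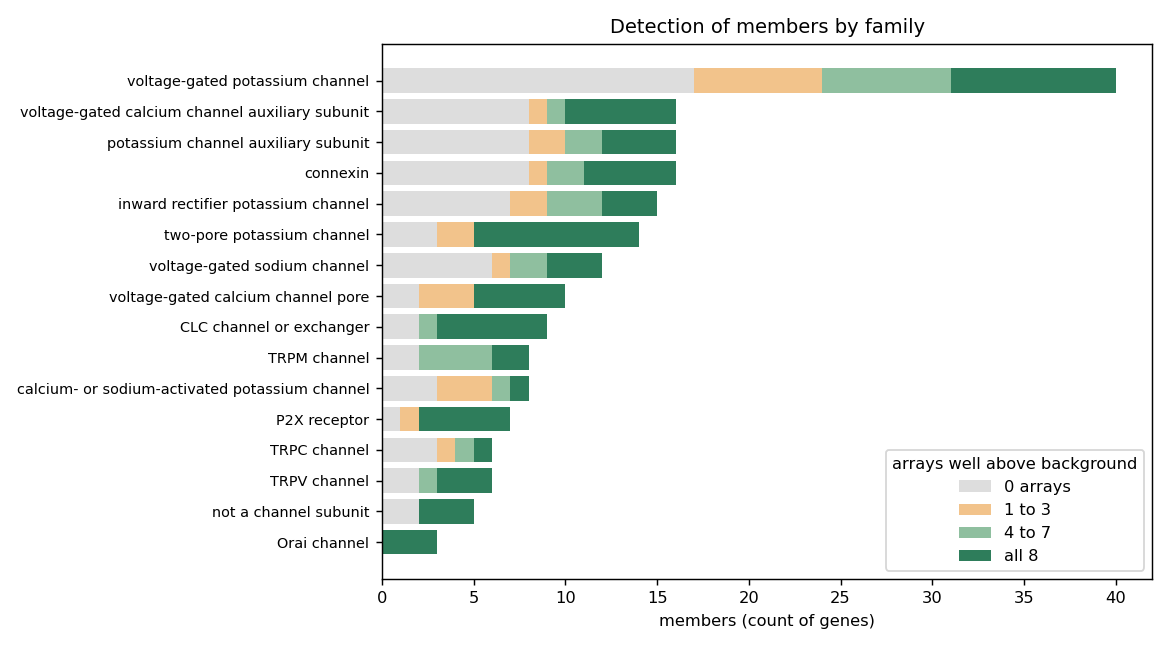
Number of members in each family by the number of arrays, of 8, on which the brightest probe was well above background. Of the 40 voltage-gated potassium channel genes 16 reached the 4 arrays needed for testing (green), while all 3 Orai genes did.

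Where a gene had further probes, most pointed the same way. A total of 23 further probes of 22 tested genes passed the same brightness filter, and 18 had the sign of the chosen probe. The exceptions were Orai3 at both further probes, P2rx7, Scn8a and Kcnrg, all with differences under 0.5 in size at either probe. The larger gaps were those of Kcnip3, Kcnq5 and Trpc4, where the further probe lay lower.

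**Figure D5:**
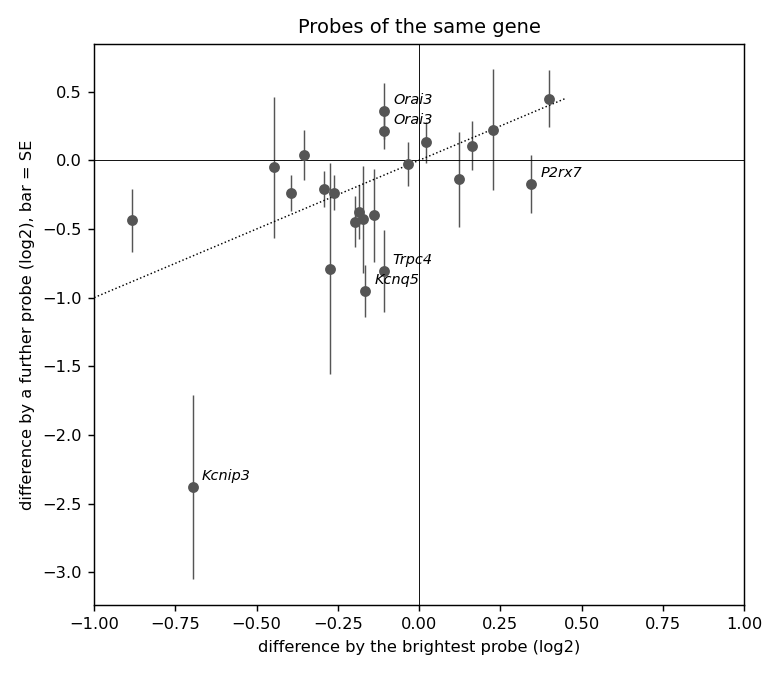
Difference between ChAT-P and ChAT-N (log2) by the brightest probe of a gene (horizontal) and by each further probe of the same gene that passed the brightness filter (vertical, with its SE); the dotted line marks equal values. Kcnip3 (-2.38), Kcnq5 (-0.95) and Trpc4 (-0.81) have further probes well below the line, and the probes of Orai3 and P2rx7 differ in sign.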

How the data were processed

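The deposited intensity values came from Agilent Feature Extraction (version 11.5.1.1, per the file headers), which had subtracted background array by array without scaling arrays to each other. The array was annotated on mm9, so no gene positions are given beyond the promoter table. Per the labels, 100 ng of total RNA was amplified before labelling. The deposited value table holds log2 values that followed the log2 scanner intensity less each array's 75th percentile (largest median gap of an array -0.0065, column medians -0.72 to -0.63, not centred per gene). The deposited flags per spot gave detection.

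Control spots were left out, as were outlier-flagged spots except for 51 probe values whose spots were all flagged, and each probe took the mean of its spots. RefSeq accessions named 26762 of 55681 probes. Values are log2 intensity minus the array's 75th percentile. Probes needed the above-background flag on 4 or more of 8 arrays, which kept 32086, the brightest probe stood for a gene, and limma 3.58.1 in R 4.3.3 compared the groups (lmFit, eBayes, two-sided, Benjamini-Hochberg over all genes). The number of arrays limits the precision. The procedure was tested on simulated data.

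The members, lists and families were chosen with earlier results of these data known. The text names Chat, called members, Trpm6 and Gja1, the largest difference of each family with the next uncalled one where that is called, members detected on at least 3 arrays of 1 group and none of the other, all tested Orai, P2X, TRPM and connexin members, called partners and up to 2 called markers per list. Kcnk15, Kcnip3, Kcnq5, Kcnn4, Kcnc1, Trpc4, Clcn4, Scn8a and Kcnrg were named after seeing their values. Alternatives to the scaling, background correction, filter, probe choice, variance model, weights, block, threshold and arrays, and the deposited table, were also run. A few genes that the naming rule takes are not reported here.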

Additional observations from a re-analysis of the deposited data

Results flagged for a closer look

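Among 86 groups of 4 arrays examined for 43 genes named here or called in any fit, 6 held an array far from the other 3, by the gap to the nearest of them over the whole range; chance alone gives about 1 such group in 20. Kcnc1, a fast delayed rectifier, was -1.93 on ChAT-N replicate 2 against -3.60 to -3.40 on the other ChAT-N arrays. Kcnk7 was 1.08 on ChAT-N replicate 4 against 0.62 to 0.65, on the side away from the ChAT-P values. In the TRPM family, Trpm2 was -4.38 on ChAT-N replicate 4 against -4.09 to -4.05, Trpm4 was -4.98 on ChAT-N replicate 1 against -4.05 to -3.98, Trpm5 was -4.73 on ChAT-P replicate 2 against -5.51 to -5.43, and Trpm7 was 1.95 on ChAT-N replicate 2 against 1.67 to 1.71.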

How the results depend on the processing

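Over all genes (382 higher and 428 lower), the calls were 868 and 838 at an adjusted p under 0.1, 212 and 119 under median scaling, 98 and 126 with no filter, 1002 and 1344 with the replicate block, and 21 and 35 without both arrays numbered 3. Higher calls were 650 with normexp and quantile together (512 with quantile alone) and 577 with array weights. Leaving out 1 array gave 94 to 305 higher and 116 to 429 lower. Member calls (4 higher and 2 lower, Trpm6 and Gja1 included) were 8 and 8 with the replicate block (Kcnj1 among them, 1.18, adjusted p = 0.0033), 1 and 0 without both arrays numbered 3, and 3 to 5 and 0 to 3 without 1 array. The higher count was 2 with the filter at all 8 arrays, where Trpm6 and Gja1 were not tested. The lower count was 0 under median scaling, 1 with no filter, 4 with the filter at 1 of 8 arrays or with probes averaged, and 5 with array weights or at an adjusted p under 0.1. Partner calls (1 and 10) were 0 and 3 under median scaling or with no filter, 0 and 6 with the filter at 1 of 8 arrays, 8 and 23 with the block, 0 and 1 without both arrays numbered 3, 4 and 17 at an adjusted p under 0.1, and 0 to 1 and 3 to 11 without 1 array. Higher partner calls were 3 with the filter at all 8 arrays, with normexp and quantile together and with array weights. The member median was 0.055 under median scaling and -0.20 to -0.11 without 1 array.

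Chat kept its difference but not its call with no filter (1.10) and without both arrays numbered 3 (1.00), and its difference was 0.99 to 1.26 without 1 array. Trpm6 was 1.42 and Gja1 1.48 with normexp and quantile together. Without 1 array Trpm6 ranged from 2.17 to 2.56 and Gja1 from 1.83 to 2.36. The Kcnmb4 call was lost in 1 of 21 alternatives, without both arrays numbered 3 (adjusted p = 0.0664), and that of Kcnk7 in 6. P2rx4 passed the threshold in 7 of 21, Gja3 and Kcnip3 in 5 each, Kcnk15 in 4 and Kcna3 in 3. Each of these counts includes the looser threshold of 0.1. Signs turned for Kcnq5 (0.051), Orai3 (0.11), P2rx1 (0.017), P2rx5 (0.062), Trpm1 (0.079), Trpc4 (0.11) and Kcnn4 (0.19) under median scaling, P2rx5 (0.016) under quantile normalization, Orai3 (0.15) with probes averaged, Kcnn4 (0.088) with array weights, and, without 1 array, for Kcnn4 (range over the arrays left out -0.34 to 0.33), P2rx1 (-0.60 to 0.12) and Trpc4 (-0.21 to 0.071). The cause of these changes was not tested.

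Same-numbered arrays shared deviations from their group means for numbers 1, 2 and 3 (correlations 0.54, 0.66 and 0.52) and not for number 4 (0.032), so the numbers were not taken as pairs; numbers 1, 2 and 3 correlated best with their own number, as a hint from the data. The arrays numbered 3 had the lowest signal of their group for 9 and 10 of 10 spike-in probes. Signal over background limits the 98 members that were not tested.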

Other observations

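The replicate numbers also marked a pattern in the members, within both groups. In 25 of the 93 tested members, or 26.9%, both arrays numbered 1 and 2 lay above both numbered 3 and 4 in ChAT-P and again in ChAT-N, beside 9.66% of all tested genes. Cacna1d, Kcnn3, P2rx3, P2rx5, Orai3 and Trpv1 were among them. The opposite order held for 5 members, or 5.38% beside 7.46% of all genes, with Kcnj1 and Orai1 among them. The labels do not say what the numbers stand for, and the pattern was not tested.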
